A study of Mus musculus with 29 samples.

Results

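The genes described here are 10 Sox transcription factors read in the RNA of whole mouse ovaries: Sox4, Sox11 and Sox12 of the SoxC subgroup, Sox5 and Sox6 of SoxD, Sox8 and Sox9 of SoxE, and Sox7, Sox17 and Sox18 of SoxF. They are 10 of the 51912 genes in the deposited table, chosen by family membership and a known place in somatic cells, with earlier results of these data in view. Sox11 was selected on its measured levels too, for a drop between the postnatal and the adult ovary, so its values for that step are a description and were given no test. The ovaries came from wild-type mice (Cdkn1b+/+) and from mice homozygous for a null allele of Cdkn1b (Cdkn1b-/-, called Cdkn1b-null here), which lack the cyclin-dependent kinase inhibitor p27Kip1. The ages were 13.5 and 18.5 days of gestation (E13.5, E18.5), 8 days after birth (PND8) and an adult age of 12 weeks (12wk), and ovaries were dissociated with papain before RNA extraction. Wild type had 4 libraries at each age, and Cdkn1b-null had 4 at E18.5 and 3 at each of the other ages, 29 in all. The labels give no strain and do not say whether a library is 1 animal or a pool, so a p-value measures the spread between these libraries, which may be technical. The study asked what p27Kip1 does in ovarian development.

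Sox proteins bind DNA through an HMG box, a domain shared with SRY, the product of the testis-determining gene, and they bend the DNA they bind. Members of 1 subgroup have closely similar HMG boxes and often overlap in function, so that the loss of a gene can be covered by its relatives. SoxC factors act in many progenitor cells, with Sox12 the weakest activator of the group. SoxD factors have no activation domain of their own and work as partners, in cartilage with Sox9. Sox9 with Sox8 drives and maintains Sertoli cells in the testis, and SoxF factors build and sort blood and lymphatic vessels.

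Levels are CPM, the read count scaled to library size, after TMM scaling, which corrects totals for a few very abundant genes. Library totals were 14.1 to 24.9 M counts in the 15 embryonic libraries and 24.1 to 48.2 M in the 14 postnatal and adult ones, and 3 counts, taken as the floor, were worth 0.0700 to 0.227 CPM. The floor covers counting error only. Cdkn1b itself was lower in every Cdkn1b-null library than in every wild-type library of its age, at 12.3% to 48.3% of the wild-type mean. Ddx4 (germ cells), Foxl2 (granulosa lineage), Cdh5 (blood endothelium) and Amh were all measured, with Foxl2 at 4.198 to 17.1 CPM in wild type at E13.5 and 439 to 533 CPM at PND8. Several libraries stood apart in what they contained. Haemoglobin genes took 18.97% of the counts of wild-type E13.5 replicate 3. The summed level of 12 neural and neural crest markers was 562 CPM in wild-type E13.5 replicate 1 and 40.9 to 118 CPM in its 3 wild-type companions, and 15.4 to 32.2 CPM in Cdkn1b-null ones. The summed level of 20 blood endothelial markers was 255 and 278 CPM in wild-type E18.5 replicates 3 and 4 against 585 and 636 CPM in replicates 1 and 2, and 2432 CPM in Cdkn1b-null 12wk replicate 4 against 814 and 943 CPM in the other 2 libraries of its group.

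These genes differed between ages, and no difference between genotypes was called. Library totals and GC content also moved with age, as described below, so age and the make-up of the libraries cannot be told apart. All 10 passed the filter on low counts in every comparison. With edgeR's quasi-likelihood test and an adjusted p under 0.05 over all genes tested, 9 of 10 were called between E18.5 and PND8 in wild type, 4 higher and 5 lower, and 9 of 10 in Cdkn1b-null ovaries, in the same split. Of all genes tested, 37.6% were higher and 36.9% lower in wild type, and 38.9% and 38.5% in Cdkn1b-null ovaries. That step called 74.6% of all genes tested in wild type and 77.4% in Cdkn1b-null ovaries, so the share among the Sox genes was near that of the whole table. Between E13.5 and E18.5, 3 of 10 were called in wild type (1 higher, 2 lower), where 34% of all genes were (16.6% higher, 17.5% lower). In Cdkn1b-null ovaries 2 of 10 were called (1 higher, 1 lower), where 30.2% of all genes were (15.8% higher, 14.5% lower). Between PND8 and 12wk, leaving Sox11 out, 4 of 9 were called in each genotype, 3 higher and 1 lower. The share of all genes was 30.5% in wild type (16.1% higher, 14.3% lower) and 29.1% in Cdkn1b-null ovaries (14.8% higher, 14.3% lower). The last of these counts was unsteady. Leaving out 1 library gave 2 to 5 calls in wild type, with 2 without PND8 replicate 2 or 3 or 12wk replicate 1, and 1 to 6 in Cdkn1b-null ovaries, with 1 without PND8 replicate 1, 3 or 4 and 2 without 12wk replicate 4.

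The SoxC genes took opposite directions. Sox11 was lower at each older age, while Sox4 and Sox12 were far higher at PND8 than at E18.5. The sequences just upstream of these 3 genes are shown first because the genes are close relatives that moved in opposite directions. Each stretch runs from 250 to 21 bases before the RefSeq transcript start (RefSeq on GRCm38.p6, reverse strand, 5′ to 3′), at chr13:28953720-28953949 for Sox4, chr12:27342739-27342968 for Sox11 and chr2:152398067-152398296 for Sox12. Capitals mark a GC box (GGGCGG) or a CCAAT box (CCAAT) on either strand.
Sox4: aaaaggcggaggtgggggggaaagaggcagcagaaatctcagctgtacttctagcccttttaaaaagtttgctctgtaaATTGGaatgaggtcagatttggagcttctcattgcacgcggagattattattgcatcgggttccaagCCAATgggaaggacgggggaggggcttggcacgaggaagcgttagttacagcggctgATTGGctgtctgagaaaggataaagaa
Sox11: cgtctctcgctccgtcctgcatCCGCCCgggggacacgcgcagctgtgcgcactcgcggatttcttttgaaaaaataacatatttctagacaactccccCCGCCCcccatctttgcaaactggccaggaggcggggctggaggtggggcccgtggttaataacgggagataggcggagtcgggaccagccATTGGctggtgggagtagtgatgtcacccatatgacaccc
Sox12: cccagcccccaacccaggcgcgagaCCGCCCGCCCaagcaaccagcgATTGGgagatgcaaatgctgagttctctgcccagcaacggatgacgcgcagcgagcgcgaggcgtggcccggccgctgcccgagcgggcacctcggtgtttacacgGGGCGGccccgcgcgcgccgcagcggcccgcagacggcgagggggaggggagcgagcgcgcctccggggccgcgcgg
The stretches differed in base composition, with 49.1% G and C upstream of Sox4, 59.6% upstream of Sox11 and 76.1% upstream of Sox12, against a median of 51.7% over 32851 mouse promoters of the same length. Sox4 had 3 CCAAT boxes and no GC box, Sox11 had 1 CCAAT box and 2 GC boxes, and Sox12 had 1 CCAAT box and 3 GC boxes. A GC box was found in 29.81% of the 32851 promoters and a CCAAT box in 32.18%. A TATA box (TATAAA, 11.78% of promoters), an E2F site (TTTCGCGC or TTTGGCGC, 0.59%) and a Sox site (ACAATG or ACAAAG, 23.9%) were not found in these 3 windows, searching both strands. These are matches of letters and say nothing of binding. Of the 10 genes, 6 had a promoter in the RefSeq table used.

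Sox11 (chromosome 12, 27334264 to 27342574, minus strand, GENCODE M21 on GRCm38), a strong activator of the SoxC group, was the most abundant of the 10 genes per kilobase of exon at E13.5. In wild type it stood at 494, 362, 394 and 427 CPM at E13.5, at 151, 117, 110.1 and 112 CPM at E18.5, at 22.9, 19.5, 24.2 and 20.2 CPM at PND8 and at 2.33, 1.98, 1.22 and 1.90 CPM at 12wk. In Cdkn1b-null ovaries it stood at 541, 166 and 301 CPM at E13.5, at 118, 125.2, 110.5 and 126 CPM at E18.5, at 39.0, 23.1 and 22.9 CPM at PND8 and at 3.20, 2.16 and 6.63 CPM at 12wk. In both genotypes all E18.5 libraries lay below all E13.5 ones, and all PND8 libraries below all E18.5 ones. The 12wk libraries also lay below the PND8 ones, but the gene was picked for that step. The share of all genes separated in this way is not given here. Between E13.5 and E18.5 Sox11 fell by 1.79 ± 0.15 on the log2 scale (SE, adjusted p = 3.10e-05, edgeR) in wild type and fell by 1.49 ± 0.35 (adjusted p = 0.0185) in Cdkn1b-null ovaries. In Cdkn1b-null ovaries, whose same-numbered libraries deviated together at these 2 ages, a fit with the replicate number as a block gave a log2 change of -1.34 with an adjusted p of 0.0528, and Sox5 was then the only 1 of the 10 genes called. Between E18.5 and PND8 it fell by 2.59 ± 0.13 (adjusted p = 1.39e-07) and fell by 2.14 ± 0.18 (adjusted p = 4.10e-06). The step from PND8 to 12wk, for which the gene was picked, had a log2 difference of -3.45 in wild type and -2.71 in Cdkn1b-null ovaries and was not tested. In these bulk samples, fewer cells of a type and less RNA per cell cannot be told apart.

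Sox4 (chromosome 13, 28948919 to 28953713, minus strand), which is active in many progenitor and epithelial cells, ran the other way. In wild type it stood at 59.5, 57.2, 172 and 66.8 CPM at E13.5, at 67.5, 157.5, 103 and 192.5 CPM at E18.5, at 451, 403, 381 and 377 CPM at PND8 and at 502, 779, 498 and 443 CPM at 12wk. In Cdkn1b-null ovaries it stood at 69.3, 45.2 and 59.4 CPM, then 69.2, 97.0, 77.6 and 81.6 CPM, then 364, 376 and 348 CPM, and last 523, 349 and 394 CPM. Every postnatal and adult library lay above every embryonic one. The rise from E18.5 to PND8 was 1.53 ± 0.29 on the log2 scale in wild type (adjusted p = 0.000637) and 2.10 ± 0.11 in Cdkn1b-null ovaries (adjusted p = 9.53e-08). A further rise of 0.55 ± 0.18 from PND8 to 12wk passed the test in wild type (adjusted p = 0.0421) and not in Cdkn1b-null ovaries, where it was 0.32 ± 0.16 (adjusted p = 0.193). The wild-type call was lost when any 1 of PND8 replicates 2, 3 and 4 or 12wk replicate 1 was left out (adjusted p from 0.0540 to 0.103). Between E13.5 and E18.5 the wild-type difference was 0.53 ± 0.44 (adjusted p = 0.391), and without E13.5 replicate 3, the haemoglobin-rich library with the high value, it was 1.11 and called (adjusted p = 0.0253). In Cdkn1b-null ovaries that step was 0.49 ± 0.17 (adjusted p = 0.0515), and it passed without E13.5 replicate 1 (0.63, adjusted p = 0.0211) or without E18.5 replicate 1 (0.57, adjusted p = 0.0436). An annotated gene on the opposite strand, Gm26735, shares 2616 exonic bases with Sox4, and strand-specific counting is not stated, so reads of the 2 genes cannot be told apart.

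Sox12 (chromosome 2, 152393611 to 152398063, minus strand) shared the rise from E18.5 to PND8, with a larger step. Wild-type values were 11.8, 14.3, 29.1 and 14.7 CPM at E13.5, 5.81, 18.7, 9.86 and 16.5 CPM at E18.5, 112, 139, 133.5 and 134 CPM at PND8 and 134, 104, 118 and 103 CPM at 12wk. Cdkn1b-null values were 13.6, 10.9 and 8.40 CPM, then 9.43, 10.6, 9.71 and 12.4 CPM, then 122, 119 and 127.5 CPM, and last 119, 126 and 94.1 CPM. The embryonic and the older libraries did not overlap. Sox12 rose by 3.24 ± 0.32 on the log2 scale between E18.5 and PND8 in wild type (adjusted p = 7.09e-06) and by 3.496 ± 0.11 in Cdkn1b-null ovaries (adjusted p = 6.10e-09), and its differences between PND8 and 12wk were -0.09 ± 0.09 and -0.03 ± 0.10. The profiles of Sox4 and Sox12 over the 8 groups, as mean log2 CPM centred on each gene's own mean, differed by a root mean square of 0.59, while those of Sox4 and Sox11 differed by 3.84 and those of Sox11 and Sox12 by 4.17. Pairs from different subgroups were as close as Sox4 and Sox12, with Sox9 and Sox17 at 0.55 and Sox6 and Sox9 at 0.59. Of the neural and neural crest markers, cells in which SoxC genes are abundant, 10 of 11 tested were lower and 1 higher at E18.5 than at E13.5 in wild type. In Cdkn1b-null ovaries 2 of 8 were lower and 1 higher. Over all genes 17.5% and 14.5% were lower, and 16.6% and 15.8% higher. The summed level of the markers was 40.9 to 562 CPM at E13.5 and 132 to 222 CPM at E18.5 in wild type, and 15.4 to 32.2 CPM and 70.5 to 95.9 CPM in Cdkn1b-null ovaries. A sum is carried by its most abundant markers, and in Cdkn1b-null ovaries it was higher at E18.5 though more markers were called lower. Within each genotype at E13.5, the library with the highest neural sum also had the highest Sox11. In wild type this was replicate 1, with a neural sum of 562 CPM and 494 CPM of Sox11. In Cdkn1b-null ovaries it was replicate 1, with a neural sum of 32.2 CPM and 541 CPM of Sox11. The part of these cells in the Sox11 levels was not tested.

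**Figure D1:**
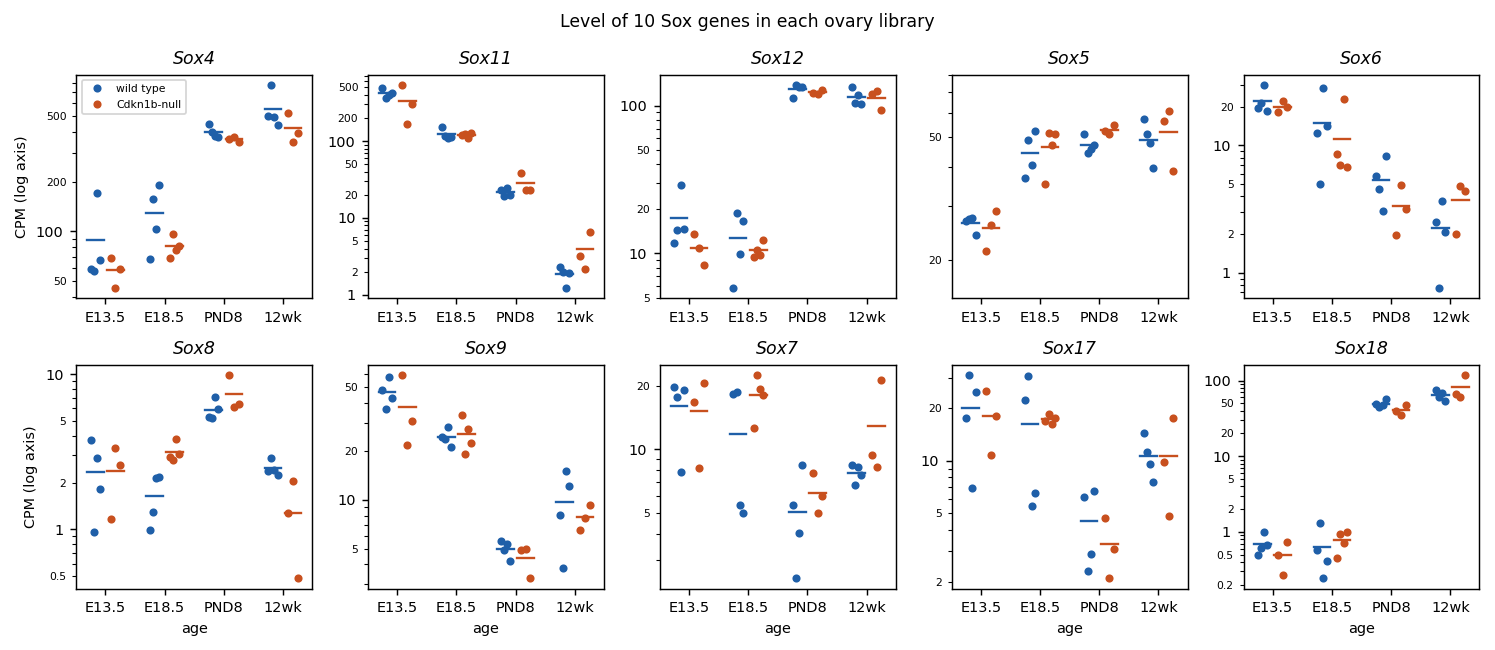
Level of each of the 10 Sox genes (CPM, log axis) by age, with 1 point per library, wild type in blue and Cdkn1b-null in orange, and a bar at each group mean. Sox11, picked for its last step, drops at each age, from 362 to 494 CPM in wild type at E13.5 to 1.22 to 2.33 CPM at 12wk. Sox4, Sox12 and Sox18 are higher in every postnatal and adult library than in every embryonic one.

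The 2 SoxD genes, which act as partners of other Sox factors, differed in their course. Sox5 (chromosome 6, 143828425 to 144781977, minus strand) spanned only 1.06 on the log2 scale between its lowest and highest group. In wild type it stood at 26.8, 27.1, 27.4 and 24.1 CPM at E13.5, 36.8, 48.9, 40.6 and 52.3 CPM at E18.5, 51.5, 44.4, 45.9 and 47.3 CPM at PND8 and 57.2, 51.1, 47.9 and 39.7 CPM at 12wk. In Cdkn1b-null ovaries the ranges were 21.5 to 28.9, 35.3 to 51.8, 51.2 to 54.9 and 38.8 to 60.8 CPM. All E13.5 libraries lay below all later ones of their genotype. Sox5 rose from E13.5 to E18.5, by 0.75 ± 0.15 in wild type (adjusted p = 0.00326) and 0.87 ± 0.16 in Cdkn1b-null ovaries (adjusted p = 0.00454), and it was called in neither later step. Its exons share 1330 bases with the antisense gene Sox5os1.

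Sox6 (chromosome 7, 115470872 to 116038796, minus strand) went down instead. Wild-type values were 19.7, 21.6, 30.0 and 18.7 CPM at E13.5, 12.6, 4.96, 28.5 and 14.1 CPM at E18.5, 5.73, 4.52, 3.04 and 8.25 CPM at PND8 and 2.51, 0.756, 3.63 and 2.09 CPM at 12wk. Cdkn1b-null values were 18.3, 22.2 and 19.9 CPM, then 8.50, 6.98, 23.0 and 6.78 CPM, then 1.96, 4.85 and 3.14 CPM, and last 2.00, 4.82 and 4.38 CPM. In both genotypes E18.5 replicate 3 was the highest of its group. Between E18.5 and PND8 it fell by 1.56 ± 0.47 on the log2 scale (adjusted p = 0.0113) in wild type, where the groups overlapped, and fell by 1.81 ± 0.52 (adjusted p = 0.0107) in Cdkn1b-null ovaries. Without E18.5 replicate 3 the earlier step from E13.5 also passed, at -1.10 (adjusted p = 0.0452) in wild type and -1.44 (adjusted p = 0.00215) in Cdkn1b-null ovaries, while with all libraries it was -0.60 ± 0.42 and -0.83 ± 0.42.

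A list of 12 genes that the trio of Sox5, Sox6 and Sox9 is known to drive in cartilage was set beside them. Of its tested members, 5 of 9 were called between E13.5 and E18.5 in wild type (2 higher, 3 lower) and 3 of 8 in Cdkn1b-null ovaries (1 higher, 2 lower), against 34% and 30.2% of all genes called. The lower ones included the collagen genes Col2a1 (-3.86 ± 0.45 in wild type, adjusted p = 0.000195, and -3.27 ± 0.55 in Cdkn1b-null, adjusted p = 0.00261) and Col9a1 (-4.11 ± 0.45, adjusted p = 0.000129, and -5.09 ± 0.83, adjusted p = 0.00240). Col2a1 stood at 2.56 to 7.42 CPM in wild type at E13.5 and at no more than 0.458 CPM from E18.5 on. In the next step, 4 of 8 tested were higher and 2 lower in wild type, with a list median of 1.28 against 0.01 over all genes, and 4 of 7 higher and 1 lower in Cdkn1b-null ovaries, with a median of 2.97 against -0.01. Over all genes 74.6% and 77.4% were called. Col11a1 (4.25 ± 0.26 in wild type), Col9a2 (3.38 ± 0.13 in Cdkn1b-null) and the sulfotransferase gene Chst11 (3.15 ± 0.21 and 3.31 ± 0.10) were among those that rose. Acan, the gene of the cartilage proteoglycan aggrecan, had differences of 0.35 ± 0.36 and 0.22 ± 0.37 in that step. Stroma also uses several of these collagen and matrix genes. The summed level of 12 stromal markers was 4396 to 7479 CPM at E18.5 and 10140 to 13630 CPM at PND8 in wild type, and its part in the list was not tested.

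The SoxE genes, which in the testis specify and maintain Sertoli cells, were both measured in the ovary. Sox9 (chromosome 11, 112782224 to 112787760, plus strand) was highest before birth. In wild type it stood at 47.8, 36.7, 57.6 and 43.0 CPM at E13.5, at 24.6, 23.7, 28.5 and 21.2 CPM at E18.5, at 5.60, 4.88, 5.32 and 4.18 CPM at PND8 and at 8.02, 3.78, 15.1 and 12.2 CPM at 12wk. In Cdkn1b-null ovaries it stood at 59.4, 21.8 and 30.9 CPM, then 33.8, 19.3, 27.4 and 22.4 CPM, then 4.90, 4.99 and 3.27 CPM, and last 6.52, 7.76 and 9.36 CPM. In wild type the first 3 ages did not overlap. Sox9 fell by 0.93 ± 0.17 on the log2 scale between E13.5 and E18.5 in wild type (adjusted p = 0.00222), while the Cdkn1b-null difference was -0.54 ± 0.34 (adjusted p = 0.273), and the difference between the genotypes in this step was not tested by itself. From E18.5 to PND8 it fell by 2.38 ± 0.15 (adjusted p = 4.23e-07) and fell by 2.60 ± 0.22 (adjusted p = 2.51e-06). From PND8 to 12wk it rose by 0.94 ± 0.26 in Cdkn1b-null ovaries (adjusted p = 0.0316), and this call was lost without any 1 of PND8 replicates 1, 3 and 4 or 12wk replicate 4 (adjusted p = 0.0679, 0.0766, 0.0945 and 0.0819). The wild-type difference was 1.06 ± 0.37 (adjusted p = 0.0596), with 12wk replicate 2 below all PND8 libraries, and without that library it was 1.33 (adjusted p = 0.00392). Sox9 can also be found in the mesonephric duct tissue beside the ovary. Of 5 mesonephric markers 4 fell between E13.5 and E18.5 in wild type (list median -5.23, with 17.5% of all genes lower). In Cdkn1b-null ovaries 0 of 5 were called (list median -2.51). Pax2, a regulator of that tissue, fell by 5.77 ± 0.87 in wild type (adjusted p = 0.000767) and had a difference of -3.23 ± 1.36 in Cdkn1b-null ovaries (adjusted p = 0.117). Pax8, its close relative, fell by 2.17 ± 0.26 (adjusted p = 0.000206) and had a difference of -1.75 ± 0.56 (adjusted p = 0.0546). Emx2, which made up most of the list's summed level, had differences of 0.05 ± 0.19 and -0.21 ± 0.13. In wild type at E18.5, Pax2 and Lhx1 averaged 0.073 and 0.146 CPM, near the floor. Both passed the filter through E13.5 alone, so their tests could only give a fall. Cdkn1b-null libraries were widely spread, with Pax2 at 0.691 to 12.6 CPM at E13.5 and Cdh16 at 0 to 20.65 CPM at E18.5. The genotype by age test called none of the 5 markers (lowest adjusted p = 0.1415, Emx2, edgeR). The 4 and 0 calls are thus not evidence of a difference between genotypes. Between E18.5 and PND8, 2 of 2 tested markers fell in wild type and 1 of 3 in Cdkn1b-null ovaries. Their part in the Sox9 levels was not tested.

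Sox8 (chromosome 17, 25565892 to 25570686, minus strand), which supports Sox9 in Sertoli cells, peaked at PND8. Wild-type values were 3.77, 0.955, 2.88 and 1.81 CPM at E13.5, 0.986, 1.302, 2.14 and 2.17 CPM at E18.5, 5.26, 5.20, 7.13 and 5.97 CPM at PND8 and 2.36, 2.90, 2.41 and 2.24 CPM at 12wk. Cdkn1b-null values were 1.17, 3.32 and 2.60 CPM, then 2.91, 2.78, 3.80 and 3.06 CPM, then 9.87, 6.17 and 6.41 CPM, and last 1.28, 2.06 and 0.483 CPM. The PND8 libraries lay above all others in both genotypes. The rise from E18.5 was 1.74 ± 0.30 in wild type (adjusted p = 0.000334) and 1.20 ± 0.23 in Cdkn1b-null ovaries (adjusted p = 0.000830). To 12wk Sox8 fell by 1.16 ± 0.18 (adjusted p = 0.00209) and fell by 2.47 ± 0.49 (adjusted p = 0.0107). These are low levels, resting on 17 to 423 counts per library except for 14 counts in Cdkn1b-null 12wk replicate 4, and 329 exonic bases are shared with an antisense gene.

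Beside the SoxE genes, 12 genes of the Sertoli programme went both ways. Between E18.5 and PND8, 5 of 12 rose and 5 fell in wild type, with a list median of 0.03, and 5 rose and 6 fell in Cdkn1b-null ovaries, with a median of -0.72. These shares are near the 74.6% and 77.4% of all genes called in that step. Amh, the gene of anti-Müllerian hormone, which granulosa cells also make after birth, rose by 9.56 ± 0.26 and 9.29 ± 0.19 (adjusted p = 2.07e-08 and 1.28e-09). Its levels were 0.551 to 1.38 CPM at E18.5 and 695 to 1005 CPM at PND8 in wild type. Dhh, which codes for the ligand Desert hedgehog, rose by 5.64 ± 0.29 and 4.96 ± 0.19. Dmrt1, a regulator shared by Sertoli cells and early germ cells, fell by 8.60 ± 0.71 and fell by 5.22 ± 0.72 (adjusted p = 2.05e-05 and 8.37e-05) and had no count in any wild-type library at PND8 or 12wk. Of 16 granulosa lineage genes, 9 rose and 4 fell in wild type and 10 rose and 3 fell in Cdkn1b-null ovaries in this step, again near the share of all genes (74.6% and 77.4%), with Foxl2, a factor that keeps granulosa cells from the male fate, rising by 3.28 ± 0.26 and 3.34 ± 0.12.

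The SoxF genes, all known from endothelium, split in the same step. Sox18 (chromosome 2, 181669836 to 181671640, minus strand), which switches on the lymphatic programme in veins, was close to the floor before birth and well above it afterwards. In wild type it stood at 0.499, 0.618, 0.984 and 0.663 CPM at E13.5, at 0.571, 1.302, 0.243 and 0.416 CPM at E18.5, at 48.9, 44.1, 48.2 and 56.8 CPM at PND8 and at 74.7, 61.2, 69.3 and 53.9 CPM at 12wk. In Cdkn1b-null ovaries it stood at 0.492, 0.270 and 0.744 CPM, then 0.445, 0.945, 0.721 and 1.00 CPM, then 39.8, 35.5 and 47.0 CPM, and last 65.7, 61.3 and 119 CPM. The embryonic levels rested on 5 to 26 counts per library and the later ones on 1202 to 3436. The rise from E18.5 to PND8 was 6.20 ± 0.36 on the log2 scale in wild type (adjusted p = 2.26e-07) and 5.67 ± 0.24 in Cdkn1b-null ovaries (adjusted p = 1.97e-08), and in absolute size it exceeded that of 97.85% and 97.29% of all genes tested. From PND8 to 12wk Sox18 rose by 0.47 ± 0.12 (adjusted p = 0.0142) and by 1.11 ± 0.30 (adjusted p = 0.0354). The Cdkn1b-null call was lost without any 1 of the PND8 libraries (adjusted p = 0.105, 0.126 and 0.0654), and without 12wk replicate 4, which had the highest endothelial sum, the change was 0.71 and still called (adjusted p = 0.0167).

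Sox7 (chromosome 14, 63943673 to 63950732, plus strand) and Sox17 (chromosome 1, 4490931 to 4497354, minus strand, sharing 804 exonic bases with Gm37587 on the other strand), which act in haemogenic and arterial endothelium, went the opposite way. Sox17 stood in wild type at 17.7, 31.1, 6.96 and 25.0 CPM at E13.5, at 22.4, 30.7, 5.44 and 6.50 CPM at E18.5, at 6.16, 2.30, 2.90 and 6.65 CPM at PND8 and at 14.4, 11.2, 9.62 and 7.53 CPM at 12wk. In Cdkn1b-null ovaries it stood at 25.1, 10.8 and 18.0 CPM, then 17.0, 18.6, 16.3 and 17.6 CPM, then 4.69, 2.10 and 3.11 CPM, and last 9.76, 4.82 and 17.5 CPM. The wild-type E18.5 and PND8 groups overlapped through E18.5 replicates 3 and 4, the libraries poor in endothelial markers, and the Cdkn1b-null groups did not overlap. Sox17 fell by 1.94 ± 0.59 on the log2 scale between E18.5 and PND8 (adjusted p = 0.0119) and fell by 2.44 ± 0.25 (adjusted p = 8.45e-06). It rose again to 12wk, by 1.32 ± 0.37 (adjusted p = 0.0272) and 1.81 ± 0.54 (adjusted p = 0.0453). The second call was lost without any 1 of the PND8 libraries or 12wk replicate 1 or 4 (adjusted p = 0.0641, 0.145, 0.128, 0.0782 and 0.102), and the first without PND8 replicate 2 or 3 or 12wk replicate 1 (adjusted p = 0.0528, 0.0663 and 0.0701).

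Sox7 ranged in wild type from 7.80 to 19.7 CPM at E13.5, 5.00 to 18.6 CPM at E18.5, 2.46 to 8.41 CPM at PND8 and 6.77 to 8.40 CPM at 12wk. In Cdkn1b-null ovaries the ranges were 8.21 to 20.5, 12.6 to 22.5, 4.99 to 7.75 and 8.28 to 21.2 CPM. Between E18.5 and PND8 it fell by 1.301 ± 0.51 in wild type (adjusted p = 0.0397) and fell by 1.59 ± 0.23 in Cdkn1b-null ovaries (adjusted p = 0.000109). The wild-type call was lost when any 1 of E18.5 replicates 1 and 2 and PND8 replicates 1, 2 and 3 was left out, at adjusted p = 0.109, 0.134, 0.0712, 0.0979 and 0.0980. Neither genotype was called between PND8 and 12wk, at 0.69 ± 0.33 (adjusted p = 0.152) and 1.17 ± 0.41 (adjusted p = 0.0768), and leaving out wild-type PND8 replicate 4 or Cdkn1b-null 12wk replicate 3 gave a call (1.04, adjusted p = 0.0328, and 1.43, adjusted p = 0.0346). Over the 8 groups the centred profiles of Sox7 and Sox17 were the closest of all 45 pairs of the 10 genes, with a root mean square difference of 0.43 in log2 CPM, while Sox17 and Sox18 differed by 3.92. Genes outside the family lay nearer to each, with Sh2d3c at 0.22 from Sox7 and Arhgdib at 0.17 from Sox17.

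Blood endothelial markers went both ways at that step. Of 20, 2 rose and 3 fell between E18.5 and PND8 in wild type, with a median of 0.16, and 3 rose and 6 fell in Cdkn1b-null ovaries, with a median of 0.03, where 74.6% and 77.4% of all genes were called. Cdh5, the gene of VE-cadherin, was among those that rose (2.10 ± 0.51 and 1.87 ± 0.17), as was the arterial ephrin gene Efnb2 (1.55 ± 0.23 and 1.32 ± 0.13), while Pecam1 had differences of 0.09 ± 0.46 and 0.05 ± 0.22. Kdr, the gene of a VEGF receptor, had a difference of -0.46 ± 0.28 in wild type (adjusted p = 0.153) and fell by 0.49 ± 0.14 in Cdkn1b-null ovaries (adjusted p = 0.00864). Plvap and Gja5 of the same list had lower means at PND8. Plvap went from 21.5 to 6.81 CPM in wild type and from 28.0 to 6.66 CPM in Cdkn1b-null ovaries, and Gja5 from 2.78 to 0.780 and from 4.10 to 1.13 CPM. The list summed to 255 to 636 CPM at E18.5 and 394 to 828 CPM at PND8 in wild type, and to 429.5 to 527.5 and 436 to 706 CPM in Cdkn1b-null ovaries. Per 1000 CPM of this list, Sox18 stood at 0.662 to 2.36 CPM in the 15 embryonic libraries and at 48.8 to 112 CPM in the 14 later ones. On the same scale Sox17 averaged 32.8 ± 12.8 CPM (SD, n = 4) at E18.5 and 7.62 ± 1.99 CPM (n = 4) at PND8 in wild type, and Sox7 averaged 25.0 ± 6.23 and 8.58 ± 1.65 CPM. For neither gene did the embryonic and the later libraries overlap in these ratios. By 12wk the endothelial list had moved up, with 16 of 20 genes higher in wild type and 10 of 20 in Cdkn1b-null ovaries than at PND8, against 16.1% and 14.8% of all genes. The smallest p-values were those of Dll4 (1.87 ± 0.31 and 2.14 ± 0.41) and Cldn5 (1.69 ± 0.31 and 2.43 ± 0.51). Per 1000 endothelial CPM, Sox18 was then 63.2 ± 5.19 CPM in wild type against 91.8 ± 20.4 CPM at PND8. The 2 ranges, 55.5 to 66.9 and 68.6 to 112 CPM, did not overlap, and in Cdkn1b-null ovaries they did, at 48.8 to 75.3 and 56.3 to 91.4 CPM.

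**Figure D2:**
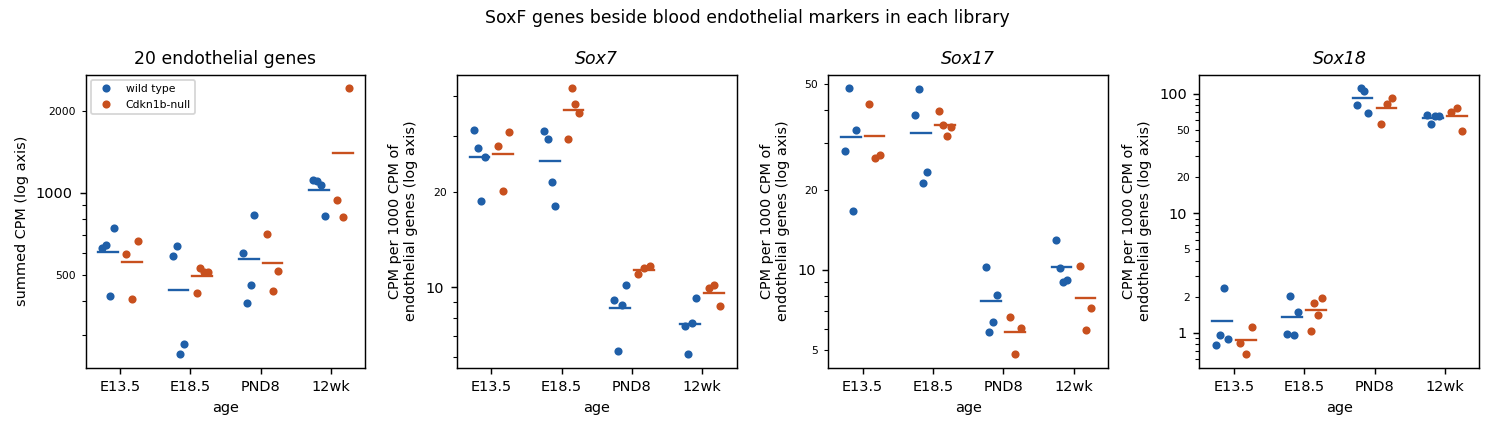
Summed CPM of 20 blood endothelial genes, and Sox7, Sox17 and Sox18 per 1000 CPM of that sum, by age and library (log axes, bars at group means). Sox18 lies between 0.662 and 2.36 in the embryonic libraries and between 48.8 and 112 in the later ones, while Sox7 and Sox17 are lower per endothelial CPM in all the later libraries.

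Lymphatic endothelial markers were also read at this step. Of 6, 5 rose and none fell between E18.5 and PND8 in wild type, and 4 rose and none fell in Cdkn1b-null ovaries, where 37.6% and 38.9% of all genes rose. Prox1, which Sox18 is known to switch on, rose by 1.18 ± 0.28 in wild type (adjusted p = 0.00286), with a difference of 0.48 ± 0.36 (adjusted p = 0.250) in Cdkn1b-null ovaries. Lyve1 rose by 2.45 ± 0.76 in wild type and had a difference of 1.37 ± 0.81 in Cdkn1b-null ovaries, and Pdpn, which granulosa cells and stroma can also make, rose by 1.07 ± 0.14 and 0.79 ± 0.10. The chemokine gene Ccl21a, a lymphatic marker, had no count in any wild-type library at E18.5 and stood at 12.0 to 32.2 CPM at PND8. In wild type it thus passed the filter through PND8 alone, and its test could only give a rise.

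Sox12 and Sox18 had the highest transcript GC content of the 10 genes, and GC content moved with age in these libraries. The longest transcript of Sox18 was 60.93% G and C, above 97.4% of genes with a mean of at least 1 CPM, and that of Sox12 59.94%, above 95.77%. The other 8 lay between 44.83% and 54.17%. Genes of the highest GC decile took 5.73 to 7.08% of the counts in the embryonic libraries and 7.48 to 8.86% in the later ones, with no overlap. Over the same step the median change of all genes in wild type ran from -0.85 in the lowest GC decile to 0.60 in the highest, and in Cdkn1b-null ovaries from -0.71 to 0.62. After an offset for GC content in each library, an alternative added after seeing the data, Sox18 rose by 5.56 and 5.10 and Sox12 by 2.67 and 2.98, and each of the 9 calls in both genotypes was kept. Library totals were also higher after birth. Age and the make-up of the libraries cannot be told apart here, and the table's header names 2 combined projects without tying samples to them. The column names of the embryonic libraries are written in another style than the later ones, with OC after the age and NULL in capitals. What this marks is not stated.

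**Figure D3:**
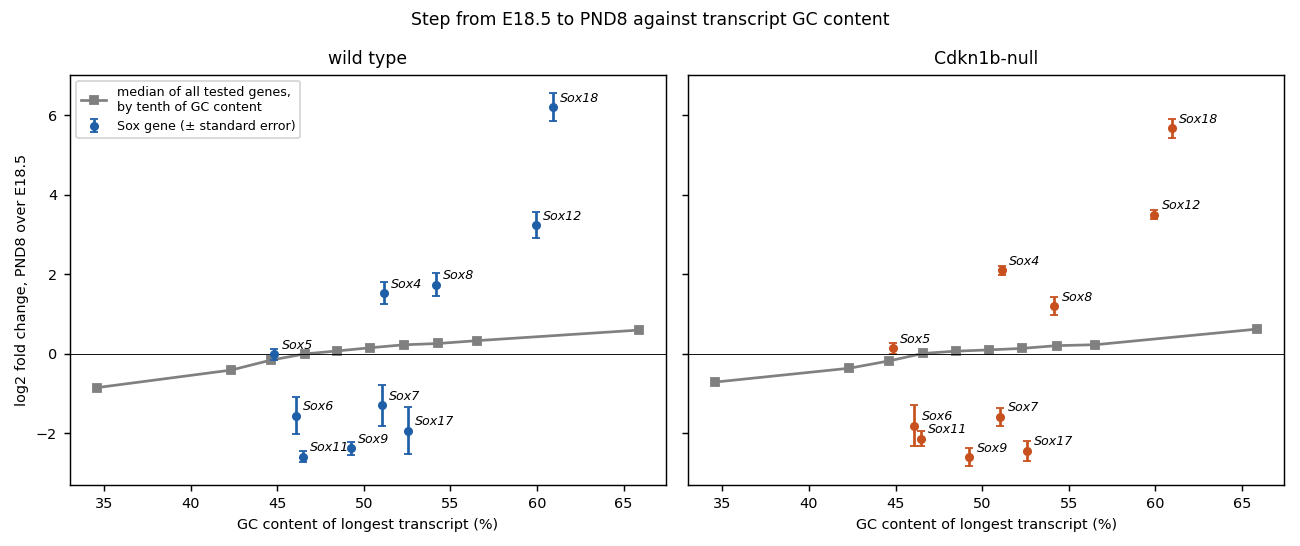
Log2 fold change from E18.5 to PND8 of the 10 Sox genes (points, ± SE) and the median of all tested genes in each GC decile (grey squares), against the GC content of the longest transcript, in wild type and Cdkn1b-null. The grey medians run from -0.85 to 0.60 in wild type, and Sox18 at 6.20 and Sox12 at 3.24 lie above them.

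Per kilobase of exon, counted over all annotated exons of a gene, the order of the 10 changed with age. The scale compares genes only roughly. Sox5 and Sox6 have 14376 and 14832 bases in 25 exon blocks, which no single transcript need span. Sox4 shares exonic bases with Gm26735. At E13.5 in wild type Sox11 led at 50.5 ± 6.82 CPM per kb (SD, n = 4), followed by Sox4 at 18.6 ± 11.6 and Sox9 at 11.2 ± 2.13, and Sox18 was last at 0.427 ± 0.128. Sox7, Sox17 and Sox12 came next at 4.86 ± 1.68, 4.23 ± 2.18 and 3.93 ± 1.77 and differed by less than their spread. At E18.5 Sox4 (27.1 ± 11.6) and Sox11 (14.8 ± 2.31) led. At PND8 Sox4 led at 84.1 ± 7.09, and Sox18 (30.5 ± 3.28) and Sox12 (29.1 ± 2.66) followed within their spread, with all the other genes at or below 3.29. At 12wk the first 3 were Sox4 at 116 ± 31.6, Sox18 at 40.0 ± 5.64 and Sox12 at 25.8 ± 3.26, Sox11 was ninth at 0.224 ± 0.0560 and Sox6 last. In Cdkn1b-null ovaries the same 3 genes led at PND8 and at 12wk.

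The genotypes were compared at each age, which asks whether loss of p27Kip1 shifted these genes. By edgeR's quasi-likelihood test 0 of 10 were called at any age, where the share of all genes called was 0.00606% in the E13.5 comparison, 4.99% in that of E18.5, then 0.349% and 0.0115% in the PND8 and 12wk comparisons. At an unadjusted p under 0.05 there were 0, 2, 1 and 1 of 10 in that order, against 3.49%, 22.1%, 15% and 9.63% of all genes, and DESeq2 also called 0 at each age. The 1 at 12wk was Sox11, whose selection enters that comparison, so this count is a description only. The groups did not overlap for 0, 1, 1 and 1 genes (3.73%, 15.2%, 14.3% and 8.77% of all genes). At E13.5 all 10 log2 differences were negative, from -0.72 to -0.04, with a median of -0.27 against -0.01 for all genes and adjusted p-values from 0.989 to 0.999. The wild-type libraries of that age included those with 18.97% haemoglobin and with the high neural sum, and the shared sign did not hold in every fit. Without replicate 3, the haemoglobin-rich library, Sox4 went from -0.67 to -0.06, Sox12 from -0.72 to -0.30 and Sox6 from -0.20 to 0.02. With 1 library or another left out, the highest differences of Sox5, Sox6, Sox7, Sox8 and Sox17 were 0.01, 0.02, 0.19, 0.28 and 0.10, and under the other settings those of Sox8 and Sox17 reached 0.02 and 0.17.

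The largest values at E18.5 were those of Sox8 and Sox4. The 4 Cdkn1b-null libraries had 2.78 to 3.80 CPM of Sox8 and the 4 wild-type ones 0.986 to 2.17, a log2 difference of 0.89 ± 0.31 (unadjusted p = 0.0140, adjusted p = 0.121). Over the other settings its adjusted p ranged from 0.0515 to 0.210, and with 1 library left out from 0.126 to 0.291. For Sox4, wild type had 67.5 to 192.5 CPM and Cdkn1b-null 69.2 to 97.0, a log2 difference of -0.71 ± 0.29 (adjusted p = 0.191). Without wild-type replicate 1, the lowest of its group, it was -0.93 and called (adjusted p = 0.0284). At this age the granulosa list had 4 of 15 tested genes higher in Cdkn1b-null ovaries and none lower, where 4.99% of all genes were called in either direction, and the smallest p-values were those of the steroid enzyme gene Hsd17b1 (2.03 ± 0.32, adjusted p = 0.00590) and the inhibin subunit gene Inha (1.14 ± 0.19, adjusted p = 0.00795), and the stroma list had 3 of 12 lower. Foxl2 had a difference of -0.31 ± 0.24. The part of cell make-up in the Sox values was not tested.

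At PND8 Sox18 stood at 44.1 to 56.8 CPM in wild type and 35.5 to 47.0 in Cdkn1b-null ovaries (log2 difference -0.29 ± 0.12, unadjusted p = 0.0440, adjusted p = 0.316). With the GC content offset the Sox18 difference was -0.13. Sox4 ran from 376.9 to 451.1 CPM in wild type and from 348 to 376.4 CPM in Cdkn1b-null ovaries. The groups thus only just missed overlapping, at a difference of -0.17 ± 0.09 (adjusted p = 0.444, edgeR). At 12wk Sox11 stood at 1.22 to 2.33 CPM in wild type and at 2.16 to 6.63 CPM in Cdkn1b-null ovaries, a difference of 1.12 ± 0.44 (unadjusted p = 0.0361, adjusted p = 0.488). Its highest value was in Cdkn1b-null replicate 4, the library with 2432 CPM of endothelial markers, which also had the highest Sox7, Sox17 and Sox18 of the age. Leaving out 1 library moved the Sox11 difference between 0.50 and 1.44. Sox8 at 12wk was lower in all 3 Cdkn1b-null libraries (0.483 to 2.06 CPM) than in all 4 wild-type ones (2.24 to 2.90 CPM), at -0.98 ± 0.45 (adjusted p = 0.535). A test of whether the genotype difference varied with age called 0 of 10, where 0.806% of all genes were called, and 2 of 10 had an unadjusted p under 0.05, against 12.7%. The smallest unadjusted p-values were 0.0229 for Sox11 and 0.0273 for Sox8, with adjusted p-values of 0.307 and 0.322 (edgeR). Sox11 was picked for its fall from PND8 to 12wk, which enters this test and the 12wk genotype comparison. Its p-values in both carry that selection and are a description only, also where they enter the counts of 10 genes.

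**Figure D4:**
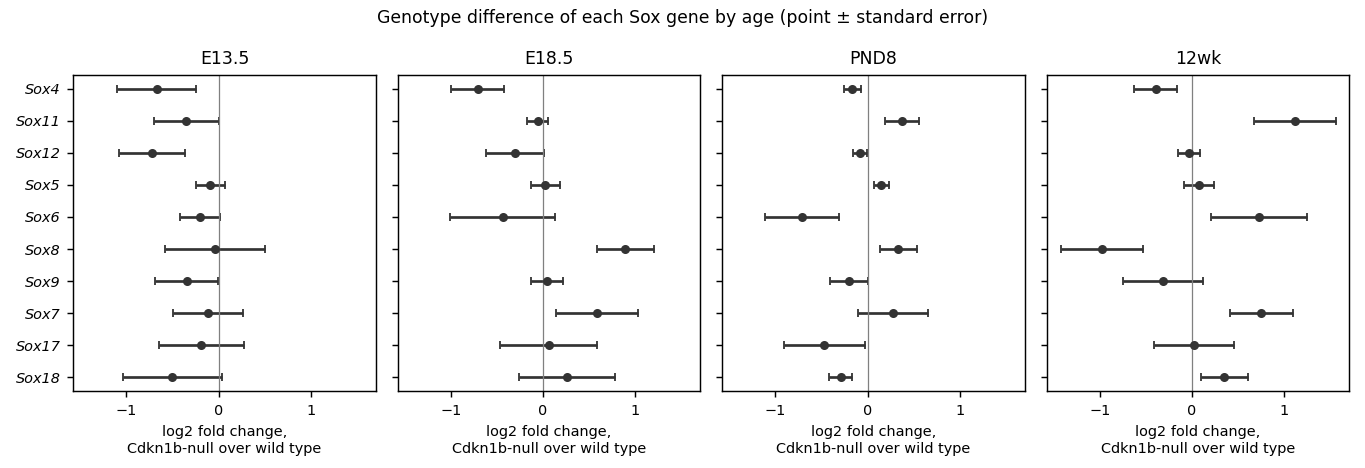
Log2 fold change of Cdkn1b-null over wild type for each Sox gene at each age (point ± SE), with 0 marked by a line. At E13.5 all 10 points lie below 0, between -0.72 and -0.04 (Sox5, Sox6, Sox7, Sox8 and Sox17 turn positive in some other fits), and at no age was a gene called.

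Genes with the most similar course were sought among 12841 named genes with a mean of at least 2 CPM, by the root mean square difference between centred log2 CPM profiles over the 8 groups. This distance tends to grow with the span of a profile, which was 1.06 for Sox5 and 7.79 for Sox11 in log2 CPM. It therefore does not rank the Sox genes by likeness of course to their neighbours. The smallest distances were those of Sox5 to Cpne3, Sec24a and Ttf1, at 0.07 to 0.08. Nearest to Sox4 were Unc119, Coq10a and Zbtb7a (0.10 to 0.15) and to Sox12 Lrrc47, Noc2l and Eif4ebp2 (0.12 to 0.14). Those of Sox11 were farther off, Rbm44, Trap1a and Vat1l at 0.44 to 0.58. Sox6 was nearest to Zcchc3, Coprs and Nrxn2 (0.26), Sox9 to Cfi, Pf4 and Adora2a (0.24 to 0.29) and Sox8 to Syt2, Kif23 and Pdpn (0.34 to 0.38). For the SoxF genes the nearest were Sh2d3c, Lifr and Aplnr for Sox7 (0.22 to 0.25), Arhgdib, Acss1 and Klhl6 for Sox17 (0.17 to 0.20) and Shank3, Gramd1b and Arhgef11 for Sox18 (0.25 to 0.34).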

How the data were processed

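Per the file header, the authors deposited gene-level expected counts from RSEM, estimates that split ambiguous reads between genes and so can be fractional, for 29 libraries in 8 groups. Per the submitters' processing notes the tools were FastQC 0.11.5, Trim Galore, STAR 2.5.2 and RSEM 1.3.0. The genome build, the annotation release and strandedness are not given in the sources used here. Of 51912 gene IDs, 51633 matched a symbol and 15157 had no count. Expected counts were rounded and tested in edgeR 4.0.16 (R 4.3.3): TMM scaling, filterByExpr at a count of 10 and a total of 15, quasi-likelihood with robust fitting on the 2 groups compared, and Benjamini-Hochberg adjustment over all genes tested, with a threshold of 0.05. The interaction used all 29 libraries. SE is the size of the log2 change divided by the square root of F. The code was tested on simulated data. Positions, exon lengths and GC content are from GENCODE M21 on GRCm38, which may differ from the authors' annotation.

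The members and lists were chosen with earlier results of these data known. Genes named are the 10 Sox genes, the first 3 of each list, up to 2 called genes of a list with the smallest p in a comparison, and the 3 nearest profiles. Plvap, Gja5, Cdh16 and Lhx1 are named for their levels only. Alternatives were DESeq2's kind of size factors, library totals alone, no filter, DESeq2 1.42.0, all groups in 1 fit, no haemoglobin genes, the replicate number as a block, each library left out, and a GC content offset with and without the block, added after seeing the data. Same-numbered libraries deviated together at E18.5 between genotypes (4 pairs, r 0.101 to 0.199) and between E13.5 and E18.5 in Cdkn1b-null (3 pairs, r 0.133 to 0.205). In no other comparison did every pair do so, though single pairs did. At PND8 between genotypes r was 0.230, -0.00923 and 0.184. Between PND8 and 12wk in Cdkn1b-null it ran from -0.127 to 0.206 over 3 pairs. The pairing comes from this correlation alone, since no label says what a number marks. All 39 replicate pairs within groups differed by more than sampling noise (chi-square per degree of freedom 13.0 to 285).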

Additional observations from a re-analysis of the deposited data

Results flagged for a closer look

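In 5 of the 50 groups of 4 libraries examined, 1 library lay farther from the rest than Dixon's 95% limit for its gap over the group's range. Chance gives about 1 in 20. Wild-type E13.5 replicate 3 accounts for 3 of them, with Sox4 at 172.3 CPM against 57.16 to 66.82 in the other 3, Sox12 at 29.14 CPM against 11.84 to 14.67, and Sox7 at 7.797 CPM against 17.65 to 19.65. That library had 18.97% of its counts in haemoglobin genes, and the part of this in the 3 values was not tested. Sox11 in wild-type E18.5 replicate 1 was 151.1 CPM against 110.1 to 117.1. Sox6 in Cdkn1b-null E18.5 replicate 3 was 22.99 CPM against 6.783 to 8.501. No genotype by age interaction of the 10 genes passed the threshold.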

How the results depend on the processing

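No called value changed sign under any setting. Of 2000 values of a gene in a comparison and setting, 1939 were unchanged, 41 lost a call and 20 gained a call. For a tested value, unchanged means that it kept its side of the threshold. The untested Sox11 values from PND8 to 12wk have no such side. They counted as unchanged where the sign held and the shift stayed under the SD between libraries. With 1 library left out, the number of the 10 genes called was 0 at E13.5, PND8 and 12wk and 0 to 1 at E18.5 for genotype, 3 to 4, 8 to 9 and 2 to 5 for the 3 wild-type steps in order of age, and 2 to 3, 9 and 1 to 6 for the Cdkn1b-null steps. Fitting all groups together left 2 of 4 calls in wild type between PND8 and 12wk, and testing without a filter left 2 of 4 in Cdkn1b-null ovaries. The cause of neither was tested. With the replicate number as a block, 1 gene rather than 2 was called between E13.5 and E18.5 in Cdkn1b-null ovaries. The block also removed calls in steps where not every same-numbered pair deviated together. In wild type, Sox7 between E18.5 and PND8 and Sox4 between PND8 and 12wk had adjusted p of 0.1002 and 0.0587 (edgeR). In Cdkn1b-null ovaries, Sox9 between PND8 and 12wk had an adjusted p of 0.0893 (edgeR), where r ran from -0.127 to 0.206 over 3 pairs. The block changed no other call of the 10 genes. Without the filter, Sox11 in Cdkn1b-null ovaries lost its call between E13.5 and E18.5 (adjusted p = 0.0748, edgeR), and Sox7 and Sox17 in wild type and Sox6 in Cdkn1b-null ovaries lost their calls between E18.5 and PND8 (adjusted p = 0.125, 0.0756 and 0.0557, edgeR). Over all genes, the number called for genotype ranged with the alternatives from 1 to 71 at E13.5 (main 1), 744 to 1637 at E18.5 (814), 0 to 715 at PND8 (62) and 0 to 293 at 12wk (2), and for the interaction from 119 to 708 (164). Depth limits Sox18 before birth, where levels rest on 5 to 26 counts.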

Other observations

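Other members of the family were read only by level. Sox13, the third SoxD gene, was 3.39 to 10.3 CPM in the embryonic libraries and 23.1 to 43.3 CPM in the later ones. Sox2, a gene of pluripotent, early germ and neural cells, was 1.31 to 4.69 CPM in the E13.5 libraries and at most 0.0543 CPM in all later ones. Sox30, known from germ cells, averaged 2.70 ± 1.11 CPM (SD, n = 4) in wild type at E18.5 and 0.636 ± 0.239 CPM (n = 4) at E13.5. Sox15 averaged 4.85 ± 1.06 CPM at E13.5 and 1.51 ± 0.490 CPM at 12wk in wild type. Sox10, a neural crest gene, ran from 0 to 7.19 CPM among the 4 wild-type E13.5 libraries. Sox3 reached 1.15 CPM in 1 wild-type E18.5 library, and Sox1, Sox14 and Sox21 stayed at or below 0.530 CPM in every library.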
